A study of Homo sapiens with 6 samples.

Results

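The 10 genes described here encode the enzymes that make polyamines, the enzymes that break them down, and the antizyme proteins that hold the pathway in check. They were taken by gene symbol from the 58735 genes of the FPKM table. FPKM is the number of sequenced fragments per kilobase of gene, scaled by a depth value that the authors used for each library. The synthesis enzymes were *ODC1*, *AMD1*, *SRM* and *SMS*, the catabolic enzymes were *SAT1*, *SMOX* and *PAOX*, and the antizyme system was *OAZ1*, *OAZ2* and *AZIN1*. All 10 passed the minimum set for testing, which was an FPKM of 0.5 and 10 reads in at least 3 libraries, and 13621 genes of the table passed it.

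TPC-1 cells derive from a human papillary thyroid carcinoma. The study compared 3 libraries of wild strain TPC-1 with 3 libraries of *RRM2*-OE-TPC-1, to ask which transcripts differ when *RRM2*, the small subunit of ribonucleotide reductase, is overexpressed. The *RRM2*-OE-TPC-1 cells carried full-length *RRM2* behind a CMV promoter in the lentiviral vector LV18 and had been selected with puromycin, whereas wild strain TPC-1 is labelled WT with no vector named, and no library with an empty vector was used here. Effects of *RRM2* and of infection and selection therefore cannot be told apart in any value below. The methods give biological triplicates, but whether the *RRM2*-OE-TPC-1 cultures came from separate infections is not given in the sources used here, so that p-values measure the spread between these libraries. The genotype entered for replicates 2 and 3 of *RRM2*-OE-TPC-1 was RRM3 and RRM4, although their titles name *RRM2*.

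Putrescine, spermidine and spermine are small positively charged amines that bind nucleic acids, and growing cells need them for translation and division. Ornithine decarboxylase (*ODC1*) makes putrescine, S-adenosylmethionine decarboxylase (*AMD1*) makes the aminopropyl donor, and spermidine synthase (*SRM*) and spermine synthase (*SMS*) add aminopropyl groups in turn. On the way back, *SAT1* acetylates spermidine and spermine, *PAOX* oxidises the acetylated forms, and *SMOX* oxidises spermine directly. Antizymes (*OAZ1*, *OAZ2*) bind ornithine decarboxylase, deliver it to the proteasome and restrain polyamine uptake, and the antizyme inhibitor *AZIN1* binds antizyme in place of the enzyme. Much of the control of this pathway is known to act on translation and protein stability, and these data hold mRNA alone.

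Each library held between 14317091 and 17084067 reads on genes, and mitochondrial genes took 4.29% to 5.89% of them. *RRM2* was at 8.92 ± 0.346 FPKM (SD, n = 3) in TPC-1 against 48.4 ± 1.78 (SD, n = 3) in the *RRM2*-OE-TPC-1 libraries, which was 2.43 higher on the log2 scale. Of the thyroid lineage markers, *PAX8*, *FOXE1* and *HHEX* were at 1 FPKM or more in every library, whereas *TG*, *TSHR* and *SLC5A5* stayed under 0.5 and *NKX2-1* was at 0 in all 6. The summed FPKM of 6 epithelial markers was 42.9 to 47.1 in TPC-1 against 88.4 to 90.8 in *RRM2*-OE-TPC-1, with *KRT18* accounting for most of it. The epithelial markers *KRT19*, *EPCAM* and *CDH1* stayed under 0.5 FPKM in every library, so that the sum mainly reflects *KRT18*. The 4 leukocyte markers summed to 0.410 or less in every library and the 4 fibroblast markers to between 2.68 and 3.06. Of the fibroblast markers, *COL1A2* and *DCN* were at 0. *PDGFRB* made up most of the sum, with a mean of 2.12 FPKM in TPC-1 against 2.37 in *RRM2*-OE-TPC-1, and *COL1A1* was at 0.816 against 0.501. The 3 endothelial markers summed to 0.873 to 1.05 in TPC-1 against 0.0667 to 0.115 in *RRM2*-OE-TPC-1, nearly all of it *PECAM1*. The part of these markers in the polyamine values was not tested. In such bulk libraries fewer cells of a kind and less RNA per cell cannot be told apart.

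In *RRM2*-OE-TPC-1 all 4 synthesis genes were higher, the 3 genes of the antizyme system were slightly higher, and of the 3 catabolic genes *PAOX* was lower while *SAT1* and *SMOX* did not pass the test. Of the 10 genes, 8 had an adjusted p of 0.05 or less from limma with Benjamini-Hochberg adjustment over all tested genes, 7 of them higher and 1 lower. This threshold was passed by 67.6% of the 13621 tested genes, 34.9% higher and 32.7% lower, so that passing it did not set the polyamine genes apart. A change of at least 1 on the log2 scale was reached in addition by *ODC1* and *SMS*, higher, and *PAOX*, lower, which made 3 of 10 against 11.5% of tested genes (4.48% higher and 6.97% lower). The median log2 fold change of the 10 genes was 0.31, and that of all tested genes was 0.011, with quartiles of -0.37 and 0.36. The libraries of the groups did not overlap for 9 of the 10, against 72.2% of tested genes. These counts describe 10 genes of one pathway and were not tested as a set. The plot of FPKM by library shows each gene on its own axis.

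**Figure D1:**
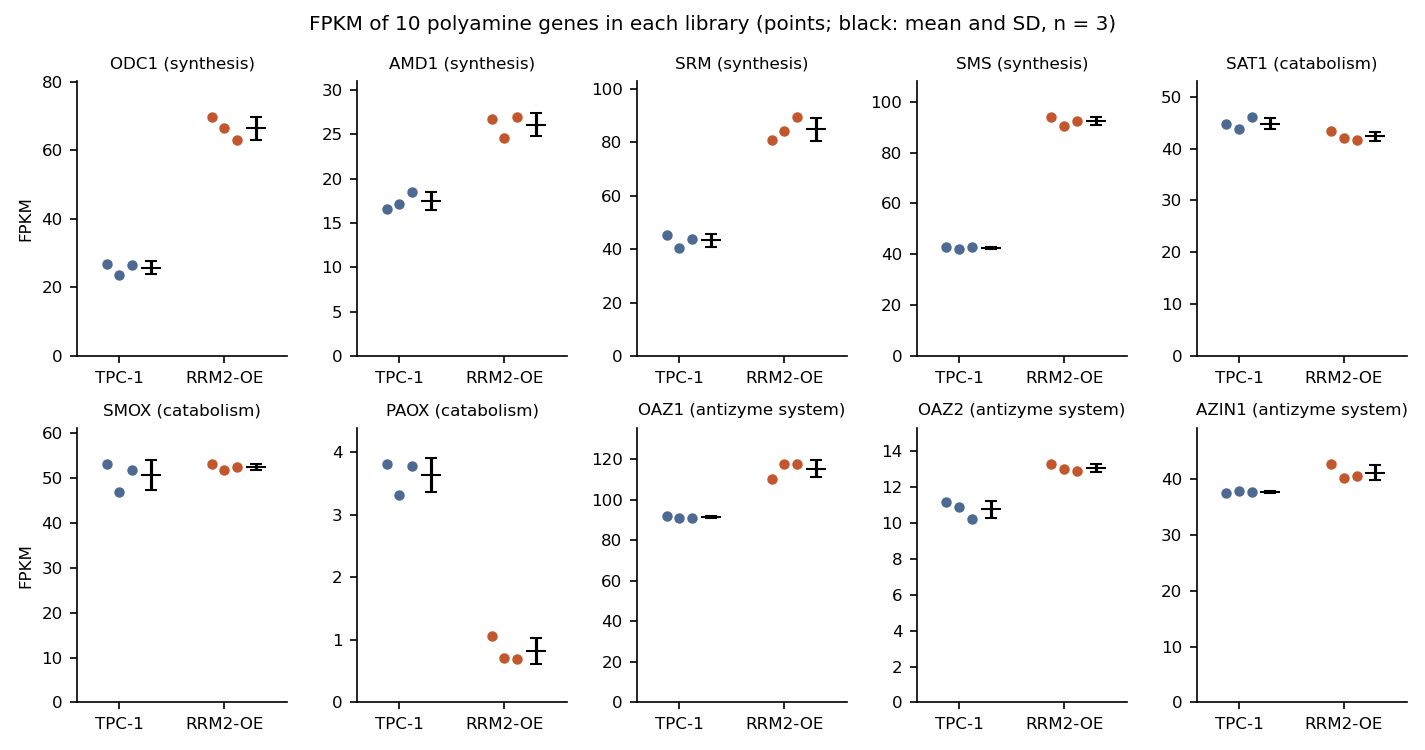
FPKM (y axis, starting at 0) of each of the 10 polyamine genes in the 3 TPC-1 and the 3 *RRM2*-OE-TPC-1 (RRM2-OE) libraries, with 1 point a library and the mean and SD in black. The points of the groups overlap for *SMOX* and for no other gene, and *PAOX* falls from over 3 FPKM to about 1 or less.

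*ODC1* (ENSG00000115758, chromosome 2 from 10439968 to 10448504 of GRCh38, minus strand), the classical rate-limiting enzyme of the pathway, rose most among the 10 genes. Its FPKM was 27.0, 23.7 and 26.7 in TPC-1 replicates 1 to 3 and 69.7, 66.5 and 63.1 in *RRM2*-OE-TPC-1. The lowest *RRM2*-OE-TPC-1 library was far above the highest TPC-1 library, and 1184 to 3380 reads stood behind each value. The mean went from 25.8 ± 1.81 to 66.4 ± 3.30 FPKM (SD, n = 3), which was 2.57 times as much. The log2 fold change was 1.36 (standard error, SE, 0.0586, limma adjusted p = 5.67e-07), at the 98.0 percentile of all tested genes.

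*SMS* (ENSG00000102172, chromosome X from 21940573 to 21994835, plus strand), which makes spermine, was the steadiest of the synthesis genes within each group. It measured 42.7, 42.1 and 42.7 FPKM in TPC-1 against 93.9, 90.6 and 92.5 in *RRM2*-OE-TPC-1. From 42.5 ± 0.350 to 92.3 ± 1.64 FPKM (SD, n = 3) the level rose 2.17 times, a log2 fold change of 1.12 (SE 0.0298, limma adjusted p = 6.21e-08). The replicates varied by 0.825% and 1.77% of their mean, and the difference was many times this spread.

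*SRM* (ENSG00000116649, chromosome 1 from 11054584 to 11060024, minus strand) makes spermidine from putrescine. TPC-1 libraries held 45.5, 40.4 and 43.8 FPKM, and *RRM2*-OE-TPC-1 libraries held 80.9, 84.2 and 89.4. The mean rose from 43.2 ± 2.56 to 84.8 ± 4.29 FPKM (SD, n = 3), and the log2 fold change of 0.97 (SE 0.0538, limma adjusted p = 1.91e-06) lay just under the threshold of 1. Without TPC-1 replicate 1 it came to 1.01, and without *RRM2*-OE-TPC-1 replicate 1 to 1.004. Its place on either side of the fold threshold thus depended on which library was left out.

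*AMD1* (ENSG00000123505, chromosome 6 from 110874770 to 110895713, plus strand), whose product supplies the aminopropyl groups for both later steps, rose least among the synthesis genes. Its FPKM was 16.6, 17.2 and 18.5 in TPC-1 against 26.7, 24.6 and 26.9 in *RRM2*-OE-TPC-1. The change from 17.4 ± 0.993 to 26.1 ± 1.28 FPKM (SD, n = 3) was a log2 fold change of 0.58 (SE 0.0541, limma adjusted p = 3.21e-05).

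Summed within each library, the 4 synthesis genes held 131.8, 123.4 and 131.7 FPKM in TPC-1 against 271.2, 265.9 and 271.9 in *RRM2*-OE-TPC-1, 2.09 times as much on average. The sum of the antizyme system was 139.8 ± 0.829 in TPC-1 against 169.5 ± 2.62 in *RRM2*-OE-TPC-1 (SD, n = 3), 1.21 times as much. The catabolic sum was 99.1 ± 4.38 and 95.5 ± 1.63, or 0.964 times. By FPKM the antizyme sum was above the synthesis sum in every TPC-1 library and below it in every *RRM2*-OE-TPC-1 library, but this order depended on the gene length by which reads were divided. With the length of the longest coding transcript, a choice made after seeing the data, the mean antizyme sum stayed above the synthesis sum in TPC-1 (368 against 179) as well as in *RRM2*-OE-TPC-1 (453 against 363). The pseudogenes *AMD1P1* to *AMD1P4*, *SRMP1* and *SRMP2*, listed as genes of their own, held between 0 and 7 reads each over all 6 libraries together.

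**Figure D2:**
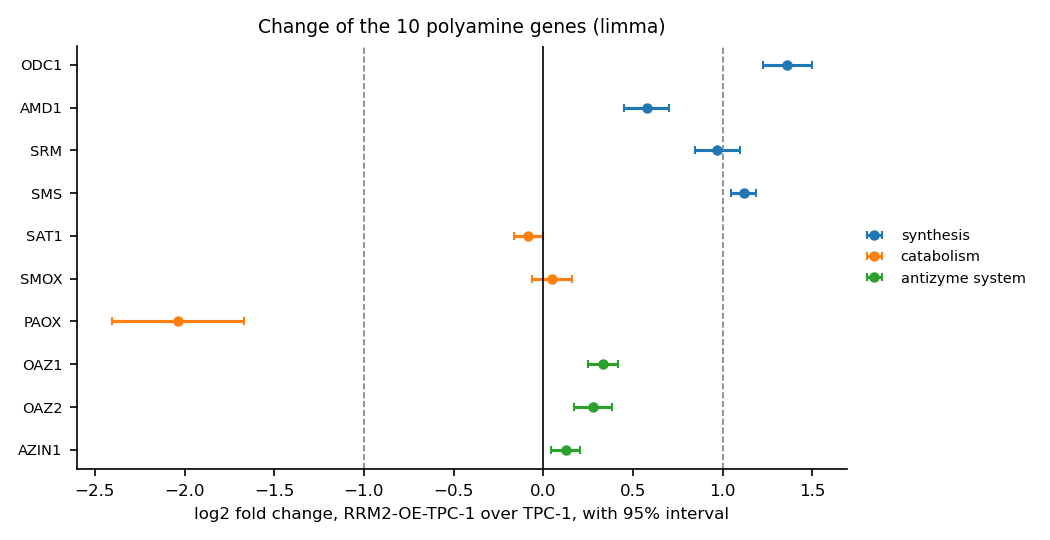
Log2 fold change of the 10 polyamine genes (*RRM2*-OE-TPC-1 over TPC-1, from limma on log2 of FPKM + 0.1), coloured by role, with points for the estimate, bars for the 95% interval and dashed lines at -1 and 1. The interval of *SMOX* spans 0, that of *SAT1* ends just below 0, and those of *ODC1*, *SMS* and *PAOX* lie wholly beyond a log2 fold change of 1 in either direction.

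*ODC1* is a textbook target of MYC, which binds the E-box CACGTG, and this motif was searched for in the start regions of the polyamine genes. RefSeq windows (GRCh38.p14), each of 250 bases before and 50 after a start site, were matched for 7 of the 10 genes and gave 10 windows. CACGTG reads the same on both strands, and 2 of the 10 windows held it, against 7.26% of all 35116 windows. The 10 windows were not separate regions, since windows 1 and 3 of *AMD1* covered nearly the same bases. *ODC1* has 2 annotated starts, 315 bases apart, and the window of the downstream start held the motif at positions -29 and +6 (counted from +1 at the start), a feature of 0.664% of all windows. The window of the upstream *ODC1* start held none. The *SRM* window held a single copy at -199, and the *SMS* window, shown for comparison as that of the other gene past both thresholds among the synthesis enzymes, held none. The windows are printed 5′ to 3′ from 250 bases before the start to 30 after it, with CACGTG in capitals.
ODC1, downstream start, chr2:10447983-10448262, minus strand: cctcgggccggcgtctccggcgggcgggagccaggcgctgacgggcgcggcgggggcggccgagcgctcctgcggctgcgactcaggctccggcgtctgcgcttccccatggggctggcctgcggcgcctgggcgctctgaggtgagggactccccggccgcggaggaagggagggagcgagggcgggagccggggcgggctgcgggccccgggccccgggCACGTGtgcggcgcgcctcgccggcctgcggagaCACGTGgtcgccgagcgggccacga
SRM, chr1:11059989-11060268, minus strand: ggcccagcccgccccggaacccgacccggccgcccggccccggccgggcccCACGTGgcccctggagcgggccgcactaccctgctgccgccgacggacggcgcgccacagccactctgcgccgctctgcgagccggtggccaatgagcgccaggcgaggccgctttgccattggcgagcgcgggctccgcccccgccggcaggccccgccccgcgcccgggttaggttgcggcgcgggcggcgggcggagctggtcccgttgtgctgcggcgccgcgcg
SMS, chrX:21940459-21940738, plus strand: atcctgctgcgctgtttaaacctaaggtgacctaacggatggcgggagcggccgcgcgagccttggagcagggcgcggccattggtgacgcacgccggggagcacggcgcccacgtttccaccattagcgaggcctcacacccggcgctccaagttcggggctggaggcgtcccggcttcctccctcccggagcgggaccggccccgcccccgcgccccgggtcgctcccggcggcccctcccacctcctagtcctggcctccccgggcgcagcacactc
A motif match is a description of the letters in a window and does not show binding. *MYC* itself, looked at after its value was known, went from 125 ± 2.54 to 72.5 ± 2.67 FPKM (SD, n = 3). Its log2 fold change was -0.78 (limma adjusted p = 8.92e-07), so that *ODC1* and *SRM* mRNA was higher in the libraries in which *MYC* mRNA was lower. By western blot, however, the paper reported significantly higher c-MYC protein in *RRM2*-OE-TPC-1 than in control cells. The *MYC* mRNA value therefore does not stand for the protein, and a part of MYC in these changes was not tested.

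*ODC1* and the endogenous *RRM2* gene lie on the same arm of chromosome 2, with start sites 327.8 kb apart, and the genes around *ODC1* were read for this reason. The window of 500 kb on either side of the *ODC1* start was chosen after the values were known, and it held 11 tested genes. Other than *RRM2* and *ODC1*, 2 of the 9 were higher (*NOL10* with a log2 fold change of 0.69 and *PDIA6* with 0.40) and 7 were lower. All 9 had an adjusted p of 0.05 or less from limma, which 67.6% of all tested genes had (34.9% higher and 32.7% lower). The 9 genes were not tested as a set. *HPCAL1*, which lies between *RRM2* and *ODC1* and starts 145.6 kb from *ODC1*, fell from 22.4 ± 1.87 FPKM in TPC-1 (SD, n = 3) by 0.89 on the log2 scale. The tested genes between *ODC1* and *RRM2* were all lower, whereas both tested genes beyond *ODC1* were higher. Apart from *HPCAL1*, the genes between were near the minimum for testing. *C2orf48* went from 1.04 ± 0.0736 to 0.505 ± 0.0850 FPKM (SD, n = 3). *AC007240.1* went from 0.616 ± 0.0835 to 0.316 ± 0.0754 FPKM (SD, n = 3). A part of the region in the *ODC1* value was not tested. Of those between, *AC007240.1* shares 20.2% of the exon bases of *RRM2* on the same strand, so that its value is uncertain. The *RRM2* value does not separate the introduced copy from the endogenous gene, so that the change of the endogenous gene cannot be read from it.

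**Figure D3:**
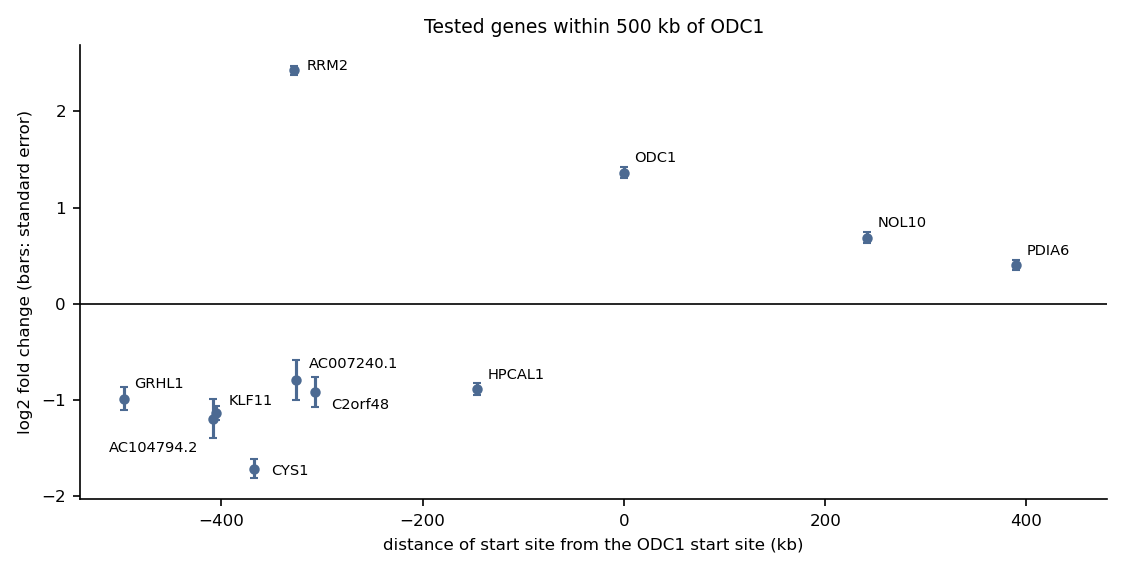
Log2 fold change (y axis, bars for the standard error) of the 11 tested genes within 500 kb of *ODC1* against the distance of their start sites from that of *ODC1* (x axis, kb). *RRM2*, *ODC1*, *NOL10* and *PDIA6* lie above 0 and the other 7 genes below it. The point of *RRM2* does not separate the introduced copy from the endogenous gene.

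The antizyme system rose by less than the enzyme it controls. *OAZ1* (ENSG00000104904, chromosome 19 from 2269509 to 2273490, plus strand), the main antizyme, had 91.9, 91.1 and 91.1 FPKM in TPC-1 against 110.4, 117.8 and 117.5 in *RRM2*-OE-TPC-1. All 3 overexpression libraries lay above the TPC-1 libraries, and the log2 fold change was 0.33 (SE 0.0354, limma adjusted p = 6.62e-05). *OAZ2* (ENSG00000180304, chromosome 15 from 64687573 to 64703281, minus strand), the second antizyme, measured 11.2, 10.9 and 10.2 FPKM and 13.3, 13.0 and 12.9 FPKM, again without overlap. Its log2 fold change was 0.28 (SE 0.0456, limma adjusted p = 8.30e-04).

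*AZIN1* (ENSG00000155096, chromosome 8 from 102826357 to 102893864, minus strand), which frees ornithine decarboxylase from antizyme, was at 37.5, 37.9 and 37.6 FPKM in TPC-1 against 42.7, 40.1 and 40.6 in *RRM2*-OE-TPC-1. The groups did not overlap, but the difference was the smallest of those that passed, with a log2 fold change of 0.13 (SE 0.0347, limma adjusted p = 0.0123). It no longer passed when the reads were scaled to library totals (log2 fold change 0.07, limma adjusted p = 0.140) or tested with voom (limma adjusted p = 0.112). The direction of *AZIN1* was higher under both.

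Ratios between members of the same library do not depend on scaling between libraries, and 8 pairs were compared. The ratio of *ODC1* to *OAZ1*, on the log2 scale of FPKM + 0.1, was -1.76, -1.94 and -1.77 in TPC-1 and -0.66, -0.82 and -0.90 in *RRM2*-OE-TPC-1, a difference of 1.03 between the means. *ODC1* mRNA was thus at 0.283 times *OAZ1* mRNA in TPC-1 against 0.577 times in *RRM2*-OE-TPC-1, by geometric means of FPKM + 0.1. With the length of the longest coding transcript these ratios of means were 0.106 and 0.215, since the change between groups does not depend on length but the ratio itself does. The ratio of *ODC1* to *AZIN1* moved from -0.55 ± 0.111 to 0.69 ± 0.0479 (SD, n = 3), so that *ODC1* went from below *AZIN1* to above it in all 3 libraries. The ratio of *AZIN1* to *OAZ1* fell by 0.21, from -1.27 ± 0.0147 to -1.48 ± 0.101, which put inhibitor mRNA lower relative to antizyme mRNA. *AMD1* fell behind *ODC1* by 0.78 on the log2 scale.

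Within synthesis, the ratio of *SMS* to *SRM* differed by 0.15 and overlapped between the groups (exact permutation p = 0.2, adjusted p = 0.229 over 8 pairs). The ratio of *OAZ2* to *OAZ1* differed by -0.06 and overlapped as well (exact permutation p = 0.3). For the other 6 pairs the groups did not overlap and the exact two-sided permutation p was 0.1, the smallest that 3 libraries against 3 can give, with an adjusted p of 0.133 over the 8 pairs. No pair could therefore pass a threshold of 0.05 by this test.

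**Figure D4:**
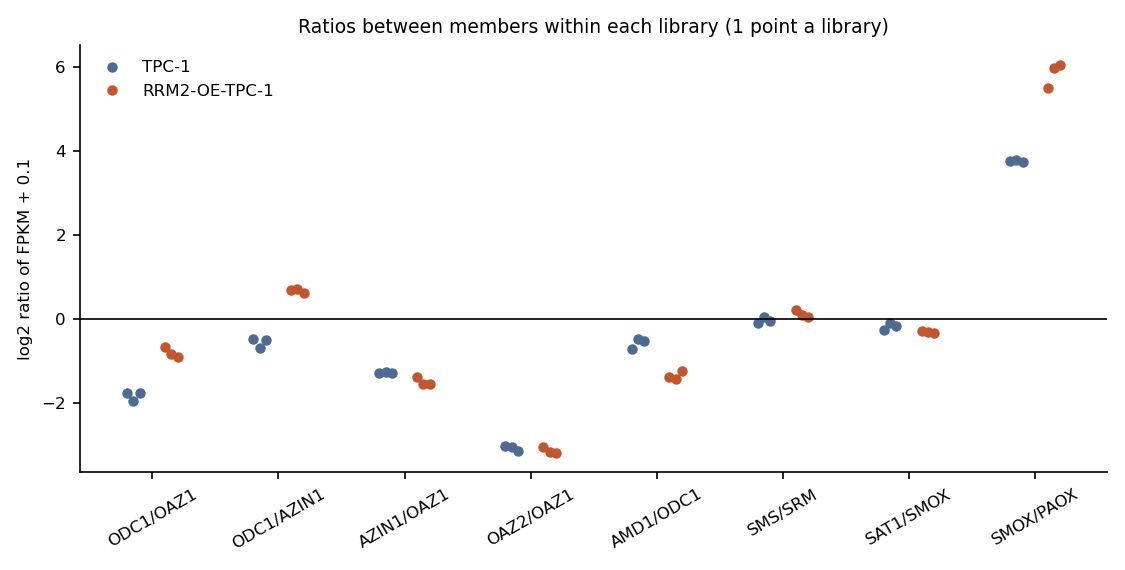
Log2 ratio of FPKM + 0.1 between the members of each of 8 pairs within a library (y axis), with 1 point a library for TPC-1 and *RRM2*-OE-TPC-1. The groups overlap for *OAZ2*/*OAZ1* and *SMS*/*SRM*, and *SMOX*/*PAOX* shows the widest gap, 2.09 between the means.

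Among the catabolic genes, *PAOX* (ENSG00000148832, chromosome 10 from 133379234 to 133391694, plus strand), the peroxisomal oxidase of acetylated polyamines, fell sharply. Its FPKM was 3.82, 3.32 and 3.78 in TPC-1 against 1.06, 0.718 and 0.689 in *RRM2*-OE-TPC-1. These levels rested on 145, 127 and 137 reads in TPC-1 and on 35, 28 and 25 reads in *RRM2*-OE-TPC-1, the lowest counts of the 10 genes. The mean fell from 3.64 ± 0.277 to 0.823 ± 0.208 FPKM (SD, n = 3), 4.42 times lower, and the replicates of *RRM2*-OE-TPC-1 varied by 25.3% of their mean. The log2 fold change was -2.04 (SE 0.159, limma adjusted p = 1.19e-05), at the 1.24 percentile of all tested genes. It ranged from -2.22 with voom to -1.35 with a pseudocount of 1 and passed both thresholds under each.

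*SAT1* (ENSG00000130066, chromosome X from 23783173 to 23786226, plus strand), the acetyltransferase that opens the back-conversion route, was at 44.7, 43.8 and 46.0 FPKM in TPC-1 against 43.3, 42.0 and 41.7 in *RRM2*-OE-TPC-1. The libraries did not overlap, yet the gap between the nearest of them was under 1 FPKM. The log2 fold change was -0.08 (95% interval -0.16 to -0.0039, limma adjusted p = 0.0606) and did not pass. It passed when reads were scaled to library totals (-0.14, limma adjusted p = 0.00935), with voom (limma adjusted p = 0.00656), without TPC-1 replicate 2 (adjusted p = 0.0490) and without *RRM2*-OE-TPC-1 replicate 1 (adjusted p = 0.0450). Across all alternatives the adjusted p of *SAT1* from limma lay between 0.00656 and 0.195.

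*SMOX* (ENSG00000088826, chromosome 20 from 4120980 to 4187747, plus strand), which oxidises spermine and releases hydrogen peroxide, measured 53.1, 46.9 and 51.8 FPKM in TPC-1 against 53.0, 51.7 and 52.4 in *RRM2*-OE-TPC-1. The groups overlapped, and the log2 fold change was 0.05 (95% interval -0.06 to 0.16, limma adjusted p = 0.382). Its sign turned when reads were scaled to library totals and without TPC-1 replicate 2. *SMOX* had 2256 to 2612 reads per library. The upper end of its interval, 0.16 on the log2 scale, holds for the deposited scaling and does not cover the choice of scaling. The ratio of *SMOX* to *PAOX* went from 3.76 ± 0.0195 to 5.85 ± 0.296 on the log2 scale (SD, n = 3), that is from 13.6 to 57.7 times as much *SMOX* as *PAOX* by geometric means of FPKM + 0.1.

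The order of levels within a group also differed. In TPC-1 the mean FPKM ran from *OAZ1* through *SMOX*, *SAT1*, *SRM*, *SMS*, *AZIN1*, *ODC1*, *AMD1* and *OAZ2* to *PAOX*, and of the neighbours *SAT1* and *SRM* as well as *SRM* and *SMS* overlapped between libraries. In *RRM2*-OE-TPC-1 it ran from *OAZ1* through *SMS*, *SRM*, *ODC1*, *SMOX*, *SAT1*, *AZIN1*, *AMD1* and *OAZ2* to *PAOX*, and of the neighbours only *SAT1* and *AZIN1* overlapped. *SMS*, *SRM* and *ODC1* thus moved above *SMOX* and *SAT1*, while *OAZ1* stayed first and *PAOX* last. These orders rest on the length by which reads were divided. The authors' gene length equalled the union of all annotated exons for each of the 10 genes, which for *OAZ1* was 3436 bases against 1148 in its longest coding transcript and for *AMD1* 7027 against 3438. Divided by the longest coding transcript, a choice made after seeing the data, the level of *OAZ1* was 273 in TPC-1 against 345 in *RRM2*-OE-TPC-1, and that of *SAT1* was 105 and 99.3. On that scale *AMD1* (35.6) was above *ODC1* (28.9) in TPC-1 and below it (53.3 against 74.3) in *RRM2*-OE-TPC-1. Differences of 1 gene between groups do not change with this length.

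A list of 51 connected genes that feed polyamine synthesis or use or handle its products was written by hand, of which 38 could be tested and 13 were under the minimum. Of the 38, 14 were higher and 20 lower with an adjusted p of 0.05 or less from limma, and their median log2 fold change was -0.21 against 0.011 over all tested genes. Since 34.9% of all tested genes were higher and 32.7% lower by this threshold, the share of higher genes was close to that of the table. The 7 that also reached a log2 fold change of 1 were all lower, a call made for 6.97% of tested genes, whereas no connected gene reached it upward. That number depended on the scale, since a pseudocount of 1 left 3, a test of a change above 1 left 2 (*SLC12A8* and *ASS1*), and a pseudocount of 0.01 or voom gave 8 with *ABAT*. It also depended on the minimum for testing. *GNMT*, among the 7, and *ABAT* were under 0.5 FPKM in every *RRM2*-OE-TPC-1 library and passed that minimum only through TPC-1. Their lower values are thus no separate result. *ARG2*, also among the 7, was under 0.5 FPKM in *RRM2*-OE-TPC-1 replicates 2 and 3.

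The genes of hypusine formation, in which spermidine is used to modify the translation factor eIF5A, were higher for 4 of 5, against 34.9% of all tested genes, and 1 of the 4 is a copy of another. *EIF5A*, the factor itself, was at 150, 140 and 143 FPKM in TPC-1 against 244, 251 and 260 in *RRM2*-OE-TPC-1. It rose by a log2 fold change of 0.80 (SE 0.0407, limma adjusted p = 1.23e-06), though *EIF5AL1*, that near-identical copy, may share reads with it and the opposite-strand gene *GPS2* overlaps 8.56% of its exons. *DOHH*, which completes hypusine, went from 8.79 ± 0.811 to 15.4 ± 1.54 FPKM (SD, n = 3), also a log2 fold change of 0.80. *DHPS*, the enzyme that takes the spermidine, was at 1.30 ± 0.121 and 1.20 ± 0.141 FPKM (SD, n = 3) and did not pass (limma adjusted p = 0.455), and 38.5% of its exon bases are shared with *AC010422.8* on the same strand.

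Methylthioadenosine is the by-product of spermidine and spermine synthesis and is recycled to methionine. Of its 5 salvage genes, 3 were higher and 2 lower by adjusted p, against 34.9% and 32.7% of all tested genes. *ADI1*, a dioxygenase of this route, rose from 7.29 ± 0.108 to 12.4 ± 0.433 FPKM (SD, n = 3), a log2 fold change of 0.75, and *ENOPH1*, the enzyme just before it, rose by 0.49. Of 8 tested methionine cycle genes, 2 were higher and 5 lower by adjusted p, against the same 34.9% and 32.7%. *AHCYL1*, a relative of S-adenosylhomocysteine hydrolase, fell from 76.0 ± 1.70 to 36.6 ± 0.304 FPKM (SD, n = 3), by 1.05 on the log2 scale. The hydrolase itself, *AHCY*, rose from 48.2 ± 2.18 to 66.7 ± 2.62 FPKM (SD, n = 3), by 0.47. *GNMT*, a glycine methyltransferase that consumes S-adenosylmethionine, had a log2 fold change of -1.10 on 2 to 16 reads per library, and its call was lost with no filter on low values (limma adjusted p = 0.0954).

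All 10 tested genes of ornithine and arginine supply passed adjusted p, 4 higher and 6 lower, where 67.6% of all tested genes passed it. *ASS1*, which with *ASL* makes arginine from citrulline, was at 57.3 ± 1.67 FPKM in TPC-1 against 13.7 ± 0.253 in *RRM2*-OE-TPC-1 (SD, n = 3). It fell by 2.05 on the log2 scale (SE 0.0359, limma adjusted p = 1.11e-08), a change of the opposite sign and larger size than that of *ODC1*. *ARG2*, the mitochondrial arginase that yields ornithine, fell by 1.67 from 1.32 ± 0.0917 to 0.364 ± 0.161 FPKM (SD, n = 3), and its value is uncertain because *VTI1B* on the opposite strand overlaps 37.4% of its exons and the strand setting of the counting is not given in the sources used here. *SLC7A2*, a transporter of cationic amino acids, fell by 1.00, right at the fold threshold. It no longer reached that threshold with a pseudocount of 1 (-0.85) or without TPC-1 replicate 2 (-0.93). The same held without *RRM2*-OE-TPC-1 replicate 3.

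Among transporters linked to polyamines, 1 was higher and 3 lower of 6 tested, against 34.9% and 32.7% of all tested genes. The higher one, *ATP13A3*, went from 28.9 ± 1.78 to 42.0 ± 0.850 FPKM (SD, n = 3), a log2 fold change of 0.54. *SLC12A8* fell from 3.74 ± 0.210 to 0.689 ± 0.137 FPKM (SD, n = 3). *SLC47A1*, an efflux carrier of organic cations, fell from 2.72 ± 0.311 to 1.24 ± 0.0584. The paralogs *AZIN2*, an antizyme inhibitor, and *SAT2*, an acetyltransferase, had log2 fold changes of -0.46 and -0.38. The adjusted p of *AZIN2*, 0.0237 from limma, rose to between 0.0548 and 0.0735 without replicate 1 or 3 of TPC-1 or replicate 1 or 2 of *RRM2*-OE-TPC-1. *ABAT* and *ALDH9A1*, which act on 4-aminobutyrate and its precursor aldehyde derived from putrescine, fell by 0.89 and 0.27.

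**Figure D5:**
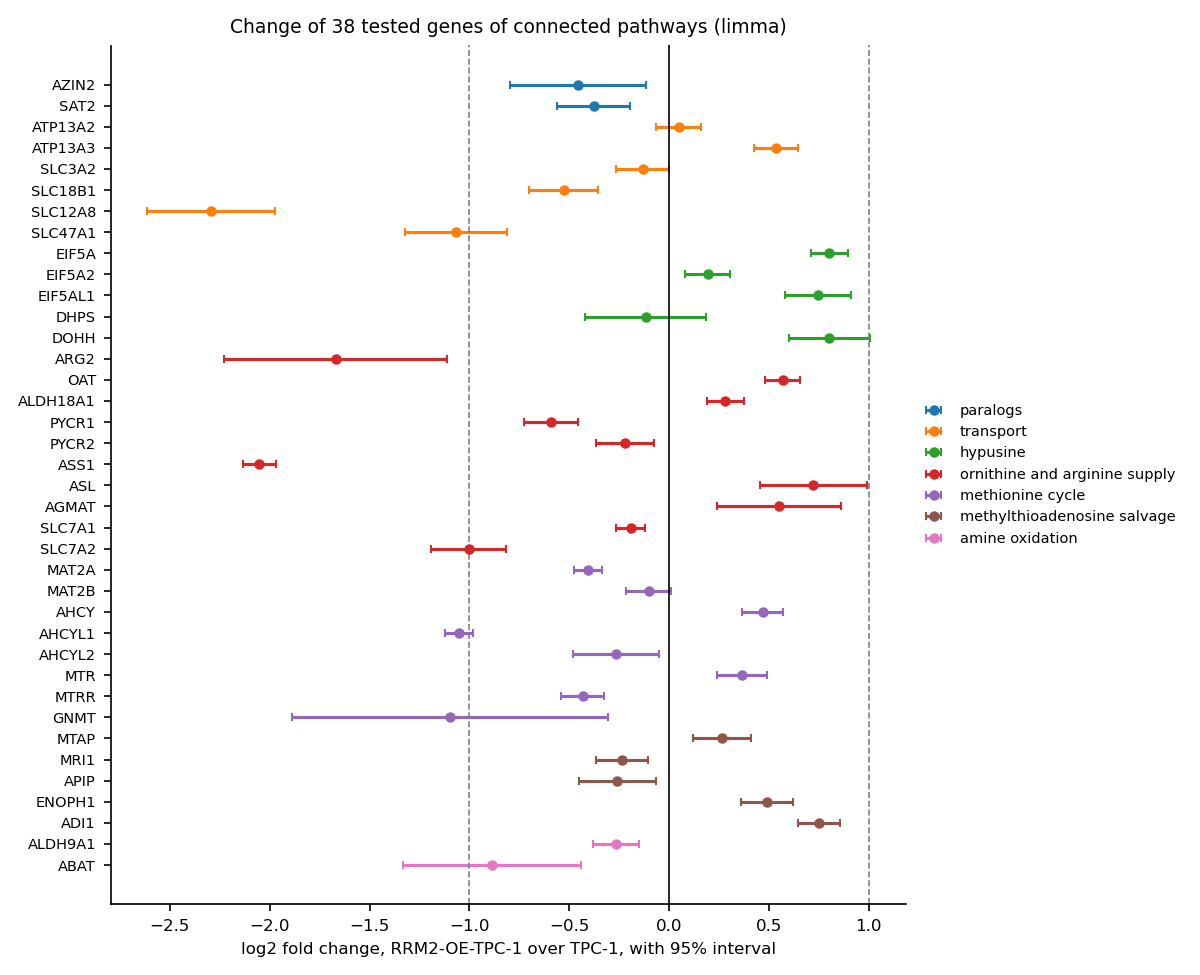
Log2 fold change (x axis, *RRM2*-OE-TPC-1 over TPC-1, from limma on log2 of FPKM + 0.1) of the 38 tested genes of connected pathways, coloured by role, with bars for the 95% interval and dashed lines at -1 and 1. The hypusine genes other than *DHPS* lie to the right of 0, and the points beyond a dashed line are all on the left.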

How the data were processed

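mRNA of 3 wild strain TPC-1 and 3 *RRM2*-OE-TPC-1 libraries was sequenced. The authors cleaned the reads, aligned them with HISAT2 (2.0.5), counted them per gene with featureCounts (1.5.0) and deposited FPKM values (versions from the submitters' processing notes). The authors tested genes with DESeq2 (1.20.0). The methods describe poly(A) selection, whereas the labels describe rRNA removal and RNase R digestion. A genome build is not given in the sources used here, and the gene identifiers and coordinates match GENCODE 29 (GRCh38).

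FPKM multiplied by gene length gave whole reads for 100.0% of values (within 0.01). The depth value behind the FPKM was 16688564 in TPC-1 replicate 1, against 16186204 reads on genes. In *RRM2*-OE-TPC-1 replicate 3 it was 15932563, against 15979186 reads on genes. The deposited values were therefore not scaled to the reads on genes. log2(FPKM + 0.1) was fitted with limma 3.58.1 (lmFit, eBayes with trend, 2 groups, no covariate) in R 4.3.3 for 13621 genes. The threshold was a Benjamini-Hochberg adjusted p of at most 0.05, and the second threshold a log2 fold change of at least 1 in either direction. A pseudocount makes fold changes of low genes too small. Ratios were compared by exact permutation over libraries with scipy 1.17.1. The procedure was tested on simulated data. Lengths and overlapping exons came from GENCODE 29.

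The members and gene lists were chosen with earlier results of these data known. Named genes are the 10 members, *RRM2*, connected genes past both thresholds, the 2 largest changes per role among those past adjusted p, and pseudogenes of members. *MYC*, the neighbours of *ODC1*, *EIF5AL1*, *DHPS*, *ASL*, *AHCY*, *ATP13A3* and genes overlapping a named gene were added after their values were seen. So were the connected genes named for a call or sign that changed with the processing (*ATP13A2*, *AHCYL2*, *APIP*, *SLC3A2* and *MAT2B*). Markers describe the cells. Some markers on the list are not reported here. Alternatives changed the pseudocount, filter, scaling, test, replicate block and libraries. An empty vector and the knockdown were not analysed here.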

Additional observations from a re-analysis of the deposited data

How the results depend on the processing

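The numbers of polyamine genes past adjusted p (8) and past both thresholds (3) were the same with pseudocounts of 1 and 0.01, no filter, the FPKM minimum alone, library totals, median-of-ratios factors and voom, although *SAT1* took the place of *AZIN1* in the first number under library totals and voom. With each library left out in turn they ranged from 8 to 9 (*SAT1* added without TPC-1 replicate 2 or *RRM2*-OE-TPC-1 replicate 1) and from 3 to 4 (*SRM* added without replicate 1 of either group). limma's treat, which tests for a change above 1, called the same 3. Connected genes past both thresholds numbered 7, but 3 with a pseudocount of 1 and 2 with treat, 8 with a pseudocount of 0.01 or voom (*ABAT* added), 6 with no filter or the FPKM minimum alone, and 6 to 7 with a library left out. Over all genes that number was 1560, but 716 with a pseudocount of 1 and 618 with treat. The log2 fold change of *SMOX* turned to -0.0076 (library totals) and -0.0080 (voom) and ranged from -0.0034 (without TPC-1 replicate 2) to 0.0859 with a library left out, and *ATP13A2* from 0.05 to -0.0091 (library totals) and -0.0106 (voom). The cause was not tested beyond the shift of the median of all genes from 0.011 to -0.045 under library totals. *GNMT*, *AZIN2*, *AHCYL2* and *APIP* lost their call under some alternatives, and *SLC3A2* and *MAT2B* gained one. The 8 ratios kept their direction with no pseudocount and with each library left out, the alternatives run for them.

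Replicate numbers are shared by the groups, but deviations of same-numbered libraries correlated at -0.0105, -0.00602 and -0.0550, so the numbers were not taken as pairs. With the replicate block, 8934 genes passed adjusted p in place of 9207, and the polyamine genes still numbered 8 and 3. The planned count-based tests and TMM scaling were not run, because FPKM is the deposited unit, and voom and median-of-ratios factors were added after seeing the data. *PAOX* (25 to 145 reads) was the polyamine gene most limited by depth.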
